A study of Mus musculus with 186 samples.

Results

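Of the 28338 gene symbols in the expression table, 97 were taken as potassium channel genes: every symbol that begins with Kcn, without names that end in os or contain -ps. The rule reads names and no measured value. It takes pore-forming subunits of voltage-gated, calcium-activated, sodium-activated, inwardly rectifying and leak channels, their auxiliary subunits, 3 noncoding or antisense RNAs (Kcnq1ot1, Kcnmb4os1 and Kcnmb4os2) and the regulator Kcnrg, and it leaves out Kcnab3os and Kcnd3os. The largest families were the inward rectifiers (Kcnj, 15 genes), the leak channels with 2 pore domains per subunit (Kcnk, 14 genes) and the electrically silent subunits (Kcnf, Kcng, Kcns and Kcnv, 10 genes).

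Potassium channels let potassium leave the neuron and so set the resting potential, end the action potential and limit how fast a neuron fires. Voltage-gated pores assemble from several subunits, silent subunits join Kv2 pores and change their gating, and auxiliary subunits such as the KChIP proteins change the amount and gating of Kv4 channels at the membrane. In striatal projection neurons, Kir2-type inward rectifiers hold the cell at a very negative resting potential, and A-type and M-type currents shape the delay and the rate of firing. Protein kinase A phosphorylates many of these channels, and Akap11 encodes an anchoring protein that tethers protein kinase A.

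The samples are bulk mRNA libraries from frozen mouse brains, cut in a cryostat into 6 regions: striatum, thalamus, substantia nigra, hippocampus, and the prefrontal and the somatosensory cortex. Mice were 4 or 12 weeks old and were wild type (WT), Akap11 +/- (HET) or Akap11 -/- (KO), which gives 36 groups, 30 of 5 libraries and 6 of 6. The sources used here do not give the strain, the sex or how the Akap11 allele was made, and nothing says that replicates came from separate animals, so p-values measure the spread between these libraries. Levels are in CPM, a gene's count scaled to a common library size, differences are on the log2 scale with a standard error (SE), and a gene is called at an adjusted p under 0.05 in edgeR's quasi-likelihood test with Benjamini-Hochberg adjustment over all genes of the comparison.

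The targeted gene followed its labels in striatum. Its log2 difference of KO from WT in the other 5 regions was -4.25 to -3.73 at 4 weeks and -3.92 to -3.65 at 12 weeks. For HET against WT at 4 weeks, 0 genes were called in hippocampus and 0 in substantia nigra, so Akap11 was not called in those comparisons. In striatum, Akap11 stood at 374 to 436 CPM in WT, 195 to 222 in HET and 16.8 to 21.5 in KO libraries at 4 weeks, and at 306 to 380, 176 to 195 and 15.7 to 24.1 CPM at 12 weeks. The score of 8 striatal projection neuron markers, their mean log2(CPM + 1), was 8.66 to 10.22 in striatal libraries and at most 6.73 in the other regions. Several 4-week libraries stood apart in the markers of another region or in Akap11 (in striatum KO 51, KO 161, KO 163 and WT 92, in thalamus WT 913, WT 914 and WT 23, in substantia nigra WT 42, WT 92, KO 44 and KO 91). Potassium channel genes took 0.386% to 0.834% of all counts in a library. Of the 97 members none was at 0 in every library, 81 reached a mean of 1 CPM in at least 1 group and 67 exceeded 10 CPM, while 16 stayed below 1 CPM in every group. The low-count filter let 74 members into all 12 comparisons of KO with WT and 14 into some of them, and 9 entered none (Kcna7, Kcna10, Kcne1, Kcnj1, Kcnk15, Kcnk16, Kcnk18, Kcnmb3 and Kcnmb4os1).

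Levels per kb divide a gene's CPM by the length of its longest GENCODE transcript, which has 4382 bases in 2 exons for Kcnab1. The order depends on this length, and which transcripts were expressed was not tested. On this scale the auxiliary subunit gene Kcnab2, a beta subunit of Kv1 channels, was the highest member in prefrontal cortex (86.6 ± 5.8 CPM per kb, SD, n = 5 WT libraries of 12 weeks), somatosensory cortex (151.2 CPM per kb), hippocampus (216.5 CPM per kb) and substantia nigra (111.9 CPM per kb). The striatum had another order. There the related beta subunit gene Kcnab1 led at 174.9 ± 29.2 CPM per kb, followed by the Kir2-type gene Kcnj4 at 140.2 and the KChIP gene Kcnip2 at 132.5, levels with SDs of 13.0 and 13.9. These 3 did not differ beyond their spread. In thalamus the astrocyte channel gene Kcnj10 (171.0 ± 26.0 CPM per kb) and Kcnab2 (159.9 ± 5.7) did not differ beyond their spread.

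The study's title names the striatum, and the comparison of KO with WT there asks which genes change with the loss of Akap11. Potassium channel genes were called in both directions. At 12 weeks, 12 of 80 tested members were called (15.0%), 4 higher and 8 lower in KO, in a comparison in which 4.42% of all 15622 tested genes were called (1.82% higher, 2.6% lower). At 4 weeks, 6 of 80 were called (7.5%), 5 higher and 1 lower, where 3.35% of 15425 genes were called (1.59% higher, 1.75% lower). At both ages 3 genes were called, in the same direction: Kcnh3 was lower, and Kcna3 and Kcnh8 were higher. The median log2 difference over tested members was 0.02 at 4 weeks and -0.05 at 12 weeks, against -0.00 and 0.01 over all tested genes. Leaving out single libraries moved these counts. At 12 weeks 7 members were called without KO 3, KO 4, KO 5 or WT 1 and 5 without WT 2 or WT 4. At 4 weeks 3 were called without KO 51, WT 142, WT 42 or WT 914, and 14 without WT 92. Leaving out KO 932 gave 16, and leaving out KO 12 gave 21. They were also 21 without the libraries WT 914, WT 92 and KO 12 together, whose values are almost never whole numbers. That last fit called 1162 of 15757 genes. It kept the KO libraries high in cortical markers but not the WT library that was.

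The ELK-type genes Kcnh3, Kcnh4 and Kcnh8 encode voltage-gated channels of the ether-a-go-go family. All of them were called at 12 weeks, but not in 1 direction. Kcnh3 lies on chromosome 15 (99224861 to 99242817, plus strand, GRCm38) and overlaps Mcrs1 on the other strand. At 12 weeks its striatal level was 153, 169, 161, 189 and 174 CPM in WT and 133, 117, 85.4, 113 and 119 CPM in KO libraries, so each KO library lay below each WT library, while the HET libraries (152 to 189 CPM) covered the WT range. The log2 difference was -0.59 ± 0.09 (SE, n = 5 per genotype; adjusted p = 0.00109, edgeR). At 4 weeks the WT libraries held 161, 239, 168, 199 and 180 CPM and the KO libraries 127, 117, 125, 104 and 127 CPM, again without overlap, with a log2 difference of -0.66 ± 0.09 (adjusted p = 0.00096, edgeR). Kcnh3 was called at both ages whichever striatal KO or WT library was left out.

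Kcnh4, whose level was highest in striatum among the regions, fell at 12 weeks from 68.9, 107, 82.4, 73.1 and 76 CPM in WT to 49.6, 64.7, 49.3, 63.9 and 60 CPM in KO, also without overlap. Its log2 difference was -0.52 ± 0.13 (adjusted p = 0.0292, edgeR), and it was lost in 5 of the 10 fits that leave out 1 KO or WT library. At 4 weeks the KO libraries spread from 22.8 to 74.5 CPM of Kcnh4 and the difference was not called (-0.57 ± 0.21, adjusted p = 0.166), and without the 4 libraries high in cortical markers it was -0.19 (adjusted p = 0.413). Kcnh8 went the other way at a level near 1 CPM. Its 4-week striatal level was 0.756, 0.724, 0.524, 0.504 and 0.575 CPM in WT and 2.41, 2.44, 1.09, 1.42 and 1.46 CPM in KO. At 12 weeks Kcnh8 stood at 0.553, 0.694, 0.646, 0.681 and 0.748 CPM in WT and at 1.42, 1.65, 1.26, 1.17 and 1.91 CPM in KO. The groups did not overlap at either age, and the log2 differences were 1.51 ± 0.28 (adjusted p = 0.0067) and 1.14 ± 0.27 (adjusted p = 0.0206, edgeR). The 12-week Kcnh8 call was lost without KO 3 or without WT 2, where its adjusted p reached at most 0.0655.

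Among the silent subunits, Kcns1 showed the smallest adjusted p of all members. Kcns1 lies on chromosome 2 (164163619 to 164171113, minus strand). Its 12-week striatal level was 7.89, 10, 9.53, 9.87 and 9.32 CPM in WT and 5.46, 5.61, 5.29, 4.51 and 5.83 CPM in KO, with HET libraries at 8.89 to 10.9 CPM. All KO libraries lay below all WT and HET libraries, and the log2 difference was -0.82 ± 0.09 (adjusted p = 6e-05, edgeR), a call that held in every fit without 1 KO or WT library. At 4 weeks Kcns1 stood at 9.37 to 10.8 CPM in WT and at 6.49, 7.08, 7.23, 10.3 and 7.65 CPM in KO. The library KO 161, at 10.3 CPM, lay within the WT range, and the difference missed the threshold (-0.39 ± 0.11, adjusted p = 0.0752). Without the 4 libraries high in cortical markers it was -0.63 (adjusted p = 0.0115, a value looked up after the others were seen).

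Kcnf1, another silent subunit, rose in KO at 12 weeks. Its WT libraries held 97.9, 111, 111, 86.9 and 103 CPM and its KO libraries 149, 118, 149, 154 and 127 CPM, without overlap, while 1 HET library at 129 CPM reached into the KO range. The log2 difference of Kcnf1 was 0.44 ± 0.11 (adjusted p = 0.0224, edgeR) at 12 weeks and 0.40 ± 0.12 (adjusted p = 0.0836) at 4 weeks, where it was 0.24 without the 4 libraries high in cortical markers. Kcns3 was called at 4 weeks alone. Its 4-week level was 1.34, 1.45, 1.11, 1.64 and 1.71 CPM in WT, 2.2, 2.24, 2.3, 1.65 and 2.23 CPM in HET and 2.06, 2.14, 3.53, 3.35 and 2.81 CPM in KO, so all KO libraries lay above all WT libraries and 4 of the 5 HET libraries did too. The KO difference of Kcns3 was 0.94 ± 0.18 (adjusted p = 0.0107, edgeR), and the HET difference was 0.55 ± 0.18, which was not called. At 12 weeks WT (1.48 to 2.48 CPM) and KO (1.55 to 2.52 CPM) had nearly the same range of Kcns3, and the difference was 0.00 ± 0.17.

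Kcna3 encodes a Kv1 pore known from lymphocytes and microglia as well as neurons, and lies in a single exon on chromosome 3 (107036169 to 107038070, plus strand), over Gm27008 on the other strand. At 12 weeks it stood at 5.65, 5.85, 5.09, 3.71 and 4.12 CPM in WT and at 7.44, 9.91, 8.73, 9.11 and 10.2 CPM in KO libraries of the striatum. At 4 weeks Kcna3 stood at 5.72, 4.76, 4.62, 4.51 and 5.04 CPM in WT and at 6.99, 6.86, 9.17, 8.63 and 6.22 CPM in KO. The groups did not overlap at either age. The log2 difference was 0.88 ± 0.14 (adjusted p = 0.00184) at 12 weeks, held in every fit without 1 library, and 0.62 ± 0.15 (adjusted p = 0.0362, edgeR) at 4 weeks, lost in 6 of 10 such fits. The summed CPM of 8 microglia markers overlapped between the genotypes at 12 weeks (344 to 418 in WT, 368 to 437 in KO) and at 4 weeks (357 to 464 and 319 to 408). In bulk tissue, fewer cells of a type and less RNA per cell cannot be told apart. Kcna1, the axonal Kv1 pore gene, was lower at 12 weeks (81.3 to 100 CPM in WT, 65.4 to 82.2 in KO, log2 difference -0.27 ± 0.06, adjusted p = 0.0242), and the ranges touch; at 4 weeks its difference was 0.01 ± 0.07.

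**Figure D1:**
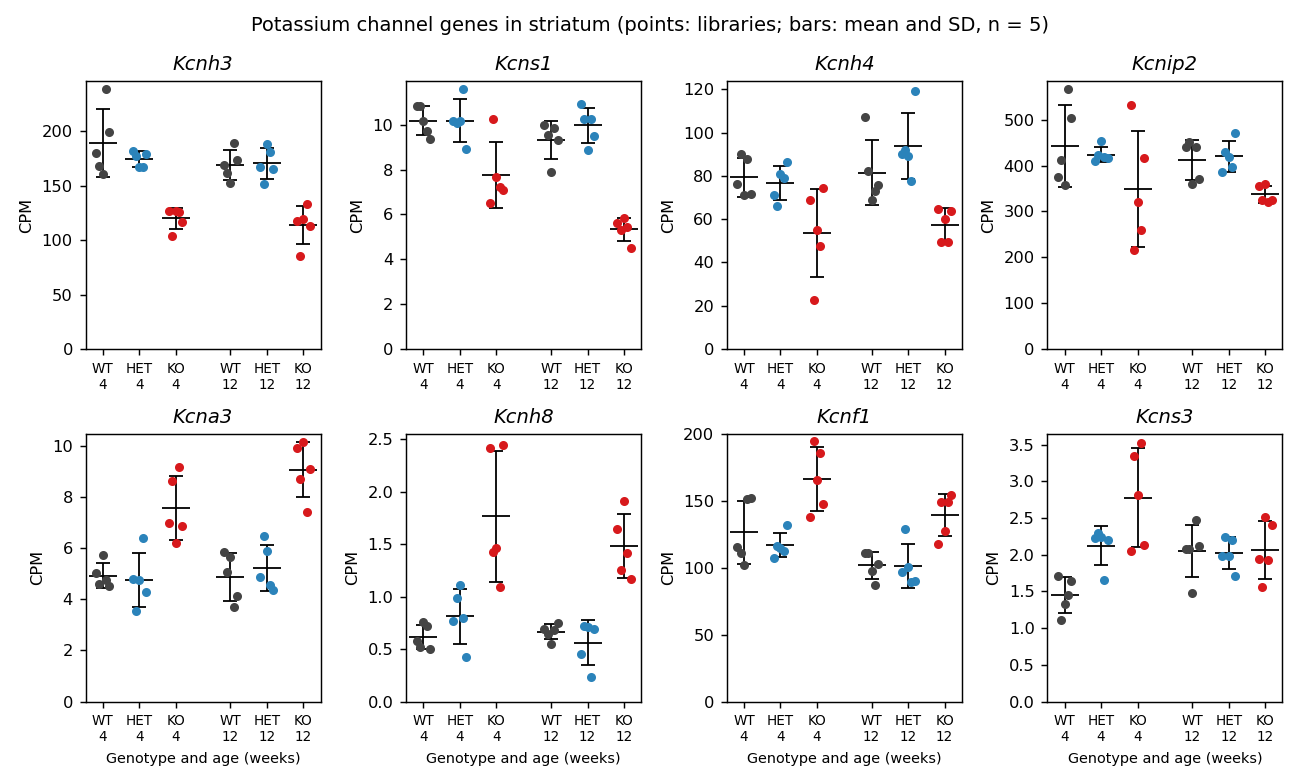
Striatal levels of 8 called potassium channel genes (CPM, linear axes from 0), 1 point per library, by genotype at 4 and 12 weeks, with mean and SD (n = 5). Kcnh3 lies lower and Kcna3 and Kcnh8 higher in KO than in WT at both ages without overlap, Kcns1 separates fully at 12 weeks, and Kcns3 separates at 4 weeks alone.

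The remaining 12-week calls were smaller. Kcnq5, an M-current pore gene, stood at 150 to 177 CPM in WT and 128 to 147 in KO (-0.26 ± 0.06, adjusted p = 0.0198). Kcnip2, a KChIP gene, stood at 361 to 452 CPM in WT and 321 to 360 in KO (-0.30 ± 0.07, adjusted p = 0.0206). The groups did not overlap for these genes. They overlapped for the Kir2-type gene Kcnj12 (12.6 to 17.1 and 9.89 to 14.3 CPM, -0.36 ± 0.10, adjusted p = 0.0438) and for the GIRK subunit gene Kcnj9, which was higher in KO (41.6 to 50.3 and 47.8 to 63.1 CPM, 0.29 ± 0.08, adjusted p = 0.0438, all edgeR). Each of these 4 calls was lost in 4 to 8 of the 10 fits without 1 library, with adjusted p at most 0.126.

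At 4 weeks the other called genes were Kcnip4, a KChIP gene (24 to 35 CPM in WT, 31 to 50 in KO, 0.50 ± 0.12, adjusted p = 0.0255), and Kcnh7, an ERG-type gene. Kcnh7 stood at 18, 11.3, 18.7, 30.9 and 16.3 CPM in WT and at 24.7, 22.2, 67.7, 74.1 and 40 CPM in KO, and the log2 difference was 1.27 ± 0.32 (adjusted p = 0.0396, edgeR). The highest WT library (WT 92) and the 3 highest KO libraries (KO 51, KO 161 and KO 163) were those high in cortical markers, described below.

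**Figure D2:**
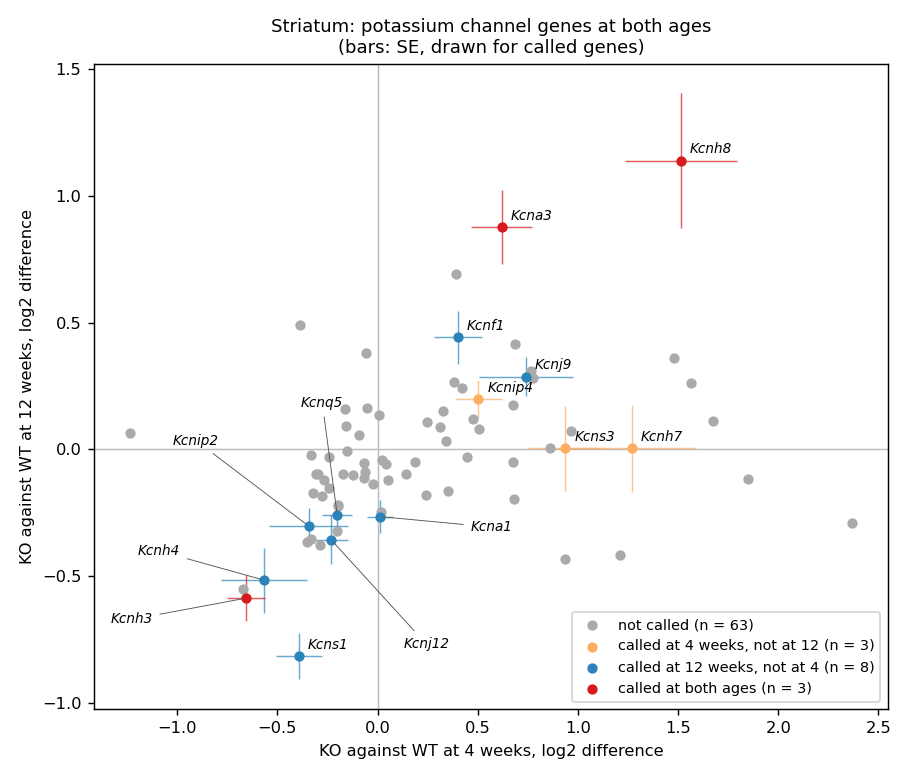
Log2 difference of KO from WT in striatum at 4 weeks (horizontal) and 12 weeks (vertical), 1 point per potassium channel gene tested at both ages and reported here, with SE bars and names for called genes. The 3 genes called at both ages lie in the lower left (Kcnh3) and upper right (Kcna3 and Kcnh8), and the genes called at 1 age are coloured by that age.

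The sign was the same at both ages for 55 of the 79 members tested at both. None of the 6 genes called at 4 weeks reversed its sign at 12 weeks. Kcnh7 (0.005 ± 0.17) and Kcns3 (0.004 ± 0.17) stood near 0 there, so their sign shows no agreement between the ages. Of the 12 called at 12 weeks, 11 kept their sign when read at 4 weeks, and Kcna1 was the exception. The difference in KO effect between the ages was tested directly in each region: 0 members and 0 genes of any kind were called (0%), and in striatum 16 members had an unadjusted p under 0.05 while the smallest adjusted p of a member was 0.897. DESeq2 called 0 members in this test too. Without the 4-week libraries that stood apart, 6 members were called in the substantia nigra, in a fit that called 971 of 16919 genes (Kcnd2 0.50, Kcnh1 0.99, Kcnj3 0.65, Kcnip1 0.54, Kcnn3 -0.63 and Kcnj13 -6.02) and 0 in the other regions.

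By family, the ELK, EAG and ERG group had 1 gene called higher and 2 lower at 12 weeks, and the silent subunits 1 higher and 1 lower, so neither family moved in 1 direction. By edgeR with all libraries no leak channel gene (10 tested), BK gene (4) or Kv4 pore gene (3) was called at either age. DESeq2 called the leak channel gene Kcnk9 (0.67, adjusted p = 0.0117) and the BK gene Kcnma1 (0.32, adjusted p = 0.0325) at 4 weeks. Without KO 12, edgeR called Kcnk9 (0.75, adjusted p = 0.0287) and the leak channel gene Kcnk3 (1.04, adjusted p = 0.0298) at that age. KO and WT libraries did not overlap for 12 members at 12 weeks and 7 at 4 weeks (5.36% and 3.6% of all tested genes). Those not called were Kcna5, Kcne1l, Kcnmb2 and Kcnv1 at 12 weeks and Kcnb2, Kcnh2 and Kcnma1 at 4 weeks. Their adjusted p ranged from 0.052 for Kcnb2 (log2 difference 0.42 ± 0.11) to 0.483 for Kcnmb2 (0.41 ± 0.26).

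At 4 weeks, 4 striatal libraries stood apart in the markers of cortical and hippocampal excitatory neurons. The 8 markers summed to 740 to 1573 CPM in KO 51, KO 161, KO 163 and WT 92 and to 4.75 to 120 CPM in the other 11, each of the 8 markers was higher in these 4 than in all others, and none was at 0 in all libraries. At 12 weeks the sum was 4.49 to 8.26 CPM in WT and 3.90 to 11.0 in KO. Several channel genes followed the same libraries. Kcnj3, a GIRK pore gene, stood at 11 to 13 CPM in 4 WT libraries and 37.1 in WT 92, at 13.6 and 15.1 in KO 12 and KO 932, and at 81.3, 94.7 and 43 CPM in KO 51, KO 161 and KO 163. The Kv3 gene Kcnc2 stood at 3.97 to 6.80 CPM in 4 WT libraries and 24.2 in WT 92, and at 6.03, 6.66, 62.4, 71 and 24.6 CPM in the KO libraries in the same order. Kcnc4 and Kcnj6 were highest in the same 4 libraries, while Kcnh3 was not: it was low in all 5 KO libraries and stood at 199 CPM in WT 92.

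**Figure D3:**
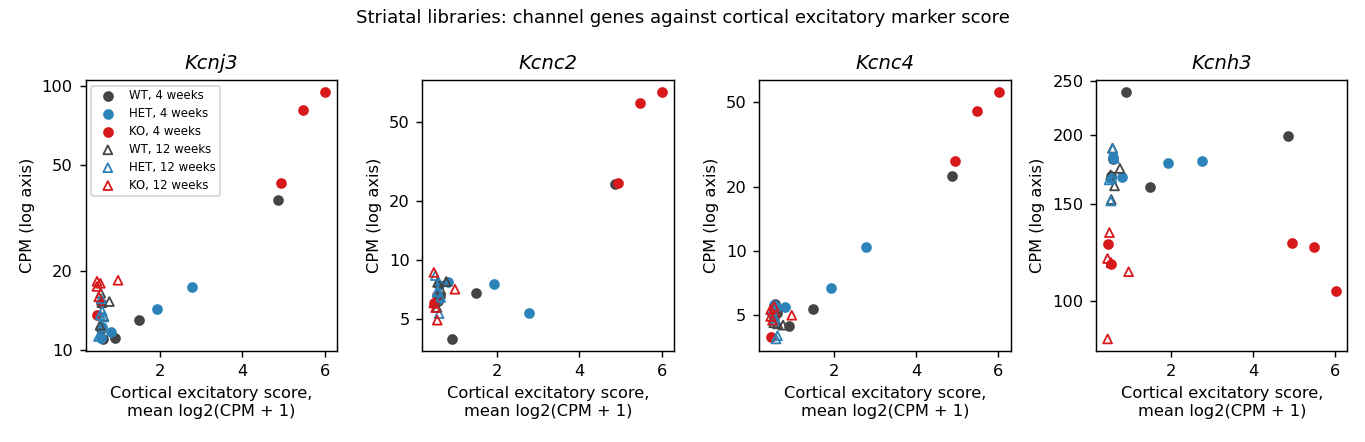
Level (CPM, log axis) of Kcnj3, Kcnc2, Kcnc4 and Kcnh3 in each striatal library against the score of cortical and hippocampal excitatory neuron markers, by genotype and age. The 4 libraries at a score of 4.86 to 6.02 hold the highest Kcnj3, Kcnc2 and Kcnc4 levels. Among these 4, a single library is WT and none is HET. Kcnh3 is lower in all KO than in all WT libraries at either age, whereas the HET libraries cover its WT range at 12 weeks.

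A contrast across regions, fitted once per age, set the KO effect in striatum against the average KO effect elsewhere. At 4 weeks 8 of 84 tested members were called, all with a higher KO difference in striatum, where 2.34% of 17290 genes were called (1.79% higher, 0.544% lower). They were Kcnj6 (2.49, adjusted p = 0.0107), Kcnc4 (1.98, 0.0197), Kcnc2 (1.93, 0.0134), Kcnj3 (1.69, 0.00591), Kcns3 (1.54, 0.0248), the antisense RNA Kcnmb4os2 (1.41, 0.0214), Kcnh7 (1.38, 0.0128) and Kcnab3 (1.16, 0.0197). In WT mice of 4 weeks each of the 8 was higher in cortex than in striatum, from 4.90-fold for Kcns3 to 21.8-fold for Kcnj6. The share of other genes that were higher in cortex than in striatum was not counted. Without the libraries that stood apart, 0 of the 8 was called (adjusted p 0.109 to 0.906), and Kcnc4 reversed to -0.11. In that fit 1 other member was called, the Kv1 pore gene Kcna2 (0.80, adjusted p = 0.0175). Most striatal KO libraries of that age were absent from it, and the part of the smaller group in the lost calls was not tested. Leaving out KO 161 alone ended all 8 calls, and leaving out KO 51 left 1. The count was 3 without WT 42 or WT 914, 4 without WT 142 or WT 913, and 14 without KO 12. Reads of Kcnmb4os2 and of Kcnmb4 on the other strand may be mixed, since the sources used here do not say whether counting used the strand.

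For the 4-week KO comparison within striatum, the fit without the 4 libraries called 6 members (417 of 15750 genes), of which Kcnh8 (1.90, adjusted p = 0.00885) and Kcnh3 (-0.63, adjusted p = 0.0244) were also called with all libraries. The others were Kcns1, Kcnj9 (0.40), Kcna2 (0.68) and Kcne1l (-0.99). Kcns3 (0.56, adjusted p = 0.226), Kcnip4 (0.40, 0.102), Kcna3 (0.44, 0.255) and Kcnh7 (0.53, 0.165) were no longer called, though each stayed higher in KO. This fit lacked most striatal KO libraries of that age and a single WT library. Whether these calls were lost through the smaller KO group or through the cortical markers was not tested. With the cortical score as a covariate Kcnh8, Kcnh3, Kcns3 (0.71, adjusted p = 0.0295) and Kcnip4 (0.40, 0.0484) were called among 9 members (520 of 15425 genes). The others were Kcna2 (0.52), Kcnj6 (0.83, 0.0234), Kcnj3 (0.54, 0.0339), Kcne1l (-0.78) and Kcnv1 (-0.32), so Kcnj6 and Kcnj3, which were highest in the 4 libraries, were called with the score in the fit. Kcna3 (0.60, 0.0679) and Kcnh7 (0.74, 0.0648) were not.

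At 12 weeks, where no striatal library was high in cortical markers, 4 of 86 members had a KO difference in striatum that departed from the other regions, all lower (3.34% of 17628 genes called, 1.45% higher and 1.88% lower). Among them were Kcns1 (-0.88 ± 0.19, adjusted p = 0.0022) and the beta subunit gene Kcnab1 (-0.37 ± 0.10, 0.0219). Kcnab1 stood at 578 to 894 CPM in WT and 541 to 659 in KO striatum, with overlapping ranges and no call within striatum (adjusted p = 0.0573). Kcns1 kept its call in every fit without 1 striatal library, and the count fell to 2 without KO 2, KO 5, WT 2 or WT 4. Kcnh3, Kcna3 and Kcnh8 were not called in this test (adjusted p 0.436, 0.143 and 0.183). With genotype and replicate number together as the block in limma-voom Kcnh3 was called (-0.60, adjusted p = 0.0102).

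Markers of other cell types were read beside these results. At 12 weeks the summed CPM of 8 markers of GABAergic cells was 1478 to 1717 in WT and 1716 to 1861 in KO striatum. Gad1 (688 to 813 CPM in WT) and Gad2 (478 to 591) were its largest parts, so the sum does not measure interneurons alone. Of the 8, Lhx6 alone was higher in all KO than in all WT libraries (29.0 to 33.1 against 25.5 to 27.8 CPM). At 4 weeks Lhx6 (25.5 to 29.1 against 19.0 to 24.8 CPM) and Pvalb (8.11 to 14.1 against 3.68 to 8.04) were higher in all KO libraries. Of the 8 mural cell markers, Tagln alone was lower in all KO libraries, at 2.07 to 3.05 against 10 to 16.2 CPM at 4 weeks and 2.72 to 5.29 against 8.14 to 24.3 at 12 weeks. The striatal projection neuron sum overlapped at 12 weeks (7821 to 10595 and 7913 to 10291 CPM), and Rgs9 alone of its 8 markers was lower in all KO libraries. The part of these marker differences in the channel results was not tested.

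In the other 5 regions no potassium channel gene was called in KO against WT in any of 10 comparisons by edgeR, where 1 to 9 genes of all kinds were called. In prefrontal cortex, somatosensory cortex, hippocampus, thalamus and substantia nigra, in that order, these were 0.0125%, 0.0564%, 0.00609%, 0.0128% and 0.00617% of tested genes at 4 weeks and 0.0123%, 0.0252%, 0.00608%, 0.0064% and 0.0364% at 12 weeks. Between 4 and 23 members had an unadjusted p under 0.05 in each, and DESeq2 called 12 members over the 10 comparisons (3 in prefrontal cortex at 4 weeks and 7 and 2 in thalamus at 4 and 12 weeks). Over all genes DESeq2 called 137 of 15130, 201 of 16810 and 16 of 17581 in these 3 comparisons. Leaving out 1 library brought calls in 2 places. Without KO 44, 4 genes were called in the 4-week prefrontal cortex (Kcnj2 1.03, Kcnd3 0.37, Kcnk1 -0.37 and Kcnj12 -0.43). Kcnj2, a Kir2-type gene, held 13.2, 8.81, 8.6, 10.3 and 12.3 CPM in WT and 17.4, 30.6, 15.2, 20.4 and 18.9 CPM in KO there, without overlap, and its adjusted p with all libraries was 0.135. Without WT 142, 5 genes were called in the 4-week thalamus (Kcnj4 -4.26, Kcns3 -2.94, Kcnip1 -2.33, Kcnmb2 -1.72 and Kcng4 -1.52).

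Of the WT libraries of that thalamus, WT 913, WT 914 and WT 23 stood apart in markers. They held 40.8, 14 and 11.6 CPM of Kcnj4, WT 142, WT 42 and WT 92 held 0.602, 10.1 and 7.05, HET libraries 0.436 to 2.79 and KO libraries 0.194 to 2.51 CPM. WT 142 was the single WT library within the mutant range. Without WT 913, WT 914 and WT 23, edgeR called 0 of 80 members (16 at an unadjusted p under 0.05) and 1 of 15728 genes. The Kcnj4 difference was then -2.73, Kcns3 -1.37, Kcnip1 -1.39, Kcnmb2 -1.45 and Kcng4 -1.11 (adjusted p 0.456 to 0.688). At 12 weeks WT thalamus held 0.477 to 14.9 CPM of Kcnj4, so its spread between WT libraries was wide at both ages. None of the genes called in striatum was called elsewhere by edgeR with all libraries, and their differences there varied. Kcns1 ranged from -0.09 to 0.39 over the other regions at 12 weeks and Kcna3 from -0.22 to 0.29, and Kcnh3 from -1.30 to 0.70. The highest of these Kcnh3 values came from thalamus, where 12-week WT libraries held 2.86 to 3.99 CPM and KO libraries 4.58 to 6.12, without overlap and opposite to striatum, at an adjusted p of 0.231. In 4 of the 5 other regions Kcnh3 was lower in KO, as in striatum, at each age. Its lowest values, -1.33 at 4 weeks and -1.30 at 12, came from substantia nigra, where its 12-week WT mean was 1.42 CPM. Kcnh8 was higher in KO in 4 of 5 other regions at 4 weeks (-0.17 to 1.32) and 3 of 4 tested at 12 weeks (-0.57 to 0.71).

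HET mice, which share the WT libraries with the KO comparison, showed 0 called members in 12 comparisons by edgeR, where at most 1 gene was called in each. At 4 weeks, prefrontal cortex had 0.00626% of its tested genes called, somatosensory cortex 0.00627%, striatum 0.00648%, thalamus 0.00639%, and hippocampus and substantia nigra 0%. At 12 weeks it was 0.00613%, 0.00629%, 0.0064% and 0.0064% in the first 4 of these regions, 0.00608% in hippocampus and 0.00606% in substantia nigra. Per comparison 1 to 22 members had an unadjusted p under 0.05, and DESeq2 called 8 members (6 in thalamus, where it called 288 of 15591 genes, and 2 in hippocampus, where it called 26 of 6651, at 4 weeks). Without WT 142, Kcnip1, Kcnj4 and Kcns3 were called in the 4-week thalamus. In striatum the HET differences of Kcnh3 (-0.11 and 0.01 at 4 and 12 weeks), Kcns1 (0.00 and 0.10) and Kcna3 (-0.05 and 0.10) stood near 0.

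Of 23 genes that encode partners of these channels, 21 were tested in striatum. At 4 weeks 2 of the 21 were called, where 3.35% of all 15425 tested genes were. At 4 weeks Akap5, an anchoring protein that binds M-type channels, was lower in KO (476 to 577 CPM in WT, 272 to 452 in KO, -0.55 ± 0.12, adjusted p = 0.0182), and the BK auxiliary gene Lrrc55 was higher (7.09 to 11 and 10.3 to 21.2 CPM, 0.80 ± 0.16, adjusted p = 0.0112, edgeR). Most KO libraries of that age were high in cortical markers, and their part in these calls was not tested. At 12 weeks 0 of 21 was called, where 4.42% of all tested genes were. The BK auxiliary gene Lingo1 had a higher KO difference in striatum than in the other regions at 12 weeks (0.36, adjusted p = 0.00887).

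The bases upstream of Kcns1, Kcna3 and Kcnh8 are shown because these genes changed in different directions; Kcnh3 is named only. Each is the 250 bases before the transcription start in RefSeq (GRCm38.p6), 5′ to 3′ on the gene's strand, with CG dinucleotides in capitals. Kcns1 is chr2:164171114-164171363 on the minus strand, Kcna3 is chr3:107035912-107036161 on the plus strand and Kcnh8 is chr17:52602459-52602708 on the plus strand.
Kcns1: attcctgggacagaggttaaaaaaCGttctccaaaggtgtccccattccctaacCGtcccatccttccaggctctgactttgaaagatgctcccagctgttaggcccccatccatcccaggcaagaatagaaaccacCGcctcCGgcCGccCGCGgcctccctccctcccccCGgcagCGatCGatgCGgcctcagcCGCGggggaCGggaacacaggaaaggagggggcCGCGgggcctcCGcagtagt
Kcna3: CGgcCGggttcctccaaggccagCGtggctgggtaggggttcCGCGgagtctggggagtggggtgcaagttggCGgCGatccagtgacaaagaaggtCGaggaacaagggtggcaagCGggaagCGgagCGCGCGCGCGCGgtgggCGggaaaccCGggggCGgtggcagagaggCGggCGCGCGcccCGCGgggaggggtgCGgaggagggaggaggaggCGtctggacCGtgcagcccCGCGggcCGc
Kcnh8: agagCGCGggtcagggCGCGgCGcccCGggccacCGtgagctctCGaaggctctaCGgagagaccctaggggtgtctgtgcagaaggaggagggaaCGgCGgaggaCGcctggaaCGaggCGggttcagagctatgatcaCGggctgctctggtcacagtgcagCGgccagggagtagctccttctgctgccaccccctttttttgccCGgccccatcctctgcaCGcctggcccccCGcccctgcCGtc
They hold 17, 31 and 20 CG dinucleotides, against a median of 7 over 96 promoters of 71 matched members and 6 over all 32851 promoters. Over the 15 promoters of called members the number ran from 1 (Kcnf1) to 31 (Kcna3), with 4 in Kcnj12 and 5 in Kcnj9. The cyclic AMP response element TGACGTCA, searched on both strands, was in 1.55% of all promoters and 0 of the 96. Its shorter form TGACG, which the full element contains, was in 17.8% of all promoters, in 16 of the 96 (16.7%) and in 0 of 15 promoters of 12 members called in striatum. The EGR motif GCGTGGGCG was in 0.536% and 0 of 96, and TATAAA in 12.4% and 3 of 96, among them Kcnj9. These counts describe letters in this window and say nothing of binding.

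Without the mutation, potassium channel genes differed strongly between brain regions. In WT libraries, each region was compared with the mean of the other 5, and a gene counted when it was called in the same direction at both ages. Of 84 members tested, 26 were higher and 35 lower in striatum, where 48.9% of all 16825 genes were called (24.8% higher, 24.1% lower). In thalamus 30 were higher and 25 lower (43.5% of all genes called, 23.6% higher, 19.9% lower), and in substantia nigra 23 and 31 (49.2%, 26% higher, 23.2% lower). In prefrontal cortex 33 were higher and 21 lower (38.8%, 20.2% higher, 18.6% lower), and in somatosensory cortex 37 and 11 (34%, 17.8% higher, 16.2% lower). The hippocampus had the fewest, 15 higher and 19 lower (31.3%, 16.7% higher, 14.7% lower). The share of members called (72.6%, 65.5%, 64.3%, 64.3%, 57.1% and 40.5%, in that order) was above the share over all genes in each region.

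In striatum the ELK gene Kcnh4, the Kv1 pore gene Kcna5 and the Kir2-type gene Kcnj4 stood highest above the other regions. Kcnh4 was at 81.5 ± 15 CPM in WT striatum of 12 weeks (SD, n = 5), 42.1 ± 4.5 in somatosensory and 22.5 ± 3.8 in prefrontal cortex, 3.68 in hippocampus and below 1 CPM in substantia nigra (0.708) and thalamus (0.148). Its difference from the mean of the others was 4.42 ± 0.25 at 4 weeks and 4.66 ± 0.14 at 12 weeks. Kcna5 was at 37.6 ± 5.1 CPM in striatum, and its mean elsewhere was at most 3.04 CPM. Kcnj4 was at 302 ± 28 CPM in striatum, 139 ± 11 and 110 ± 24 in prefrontal and somatosensory cortex and 1.66 in substantia nigra. The GIRK gene Kcnj6 was the reverse, at 0.93 ± 0.2 CPM in striatum and 9.54 to 49.9 CPM in the other regions.

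In the cortical regions the silent subunit gene Kcnv1 stood out, at 118 ± 11 CPM in somatosensory and 99.5 ± 5.5 in prefrontal cortex, 53.9 in striatum and 0.211 in thalamus. Kcnh3 was at 195 ± 15 CPM in prefrontal cortex, 187 ± 24 in somatosensory cortex and 169 ± 14 in striatum, levels whose SDs touch, then 91 in hippocampus, and low in thalamus (3.4) and substantia nigra (1.42). Kcnab3, a Kv1 beta subunit gene, separated the cortical regions: 297 ± 30 CPM in somatosensory against 19.4 ± 2.8 in prefrontal cortex. Kcng4 and the leak channel gene Kcnk13 were low in prefrontal cortex (1.61 and 2.37 CPM).

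Thalamus had the Kv3 gene Kcnc2 at 543 ± 52 CPM, against 158 in substantia nigra, 125 in somatosensory cortex and 6.99 in striatum. It also led in Kcnj12 (50.4 ± 2.1 CPM, next 17.5 in prefrontal cortex) and in the auxiliary subunit gene Kcne4 (12.3 ± 4.0, next 2.18). Substantia nigra led in Kcng4 (84.1 ± 15 CPM, next 27.0 in thalamus), Kcnd3 (270 ± 29, next 145) and Kcns3 (30.2 ± 3.5, next 11.0). Hippocampus led in Kcng2, a silent subunit gene on chromosome 18 (19.5 ± 2.6 CPM, next 6.65), and was lowest in the sodium-activated channel gene Kcnt1 (36.5 ± 15 CPM) and in Kcnj12 (4.60 ± 1.1 CPM).

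**Figure D4:**
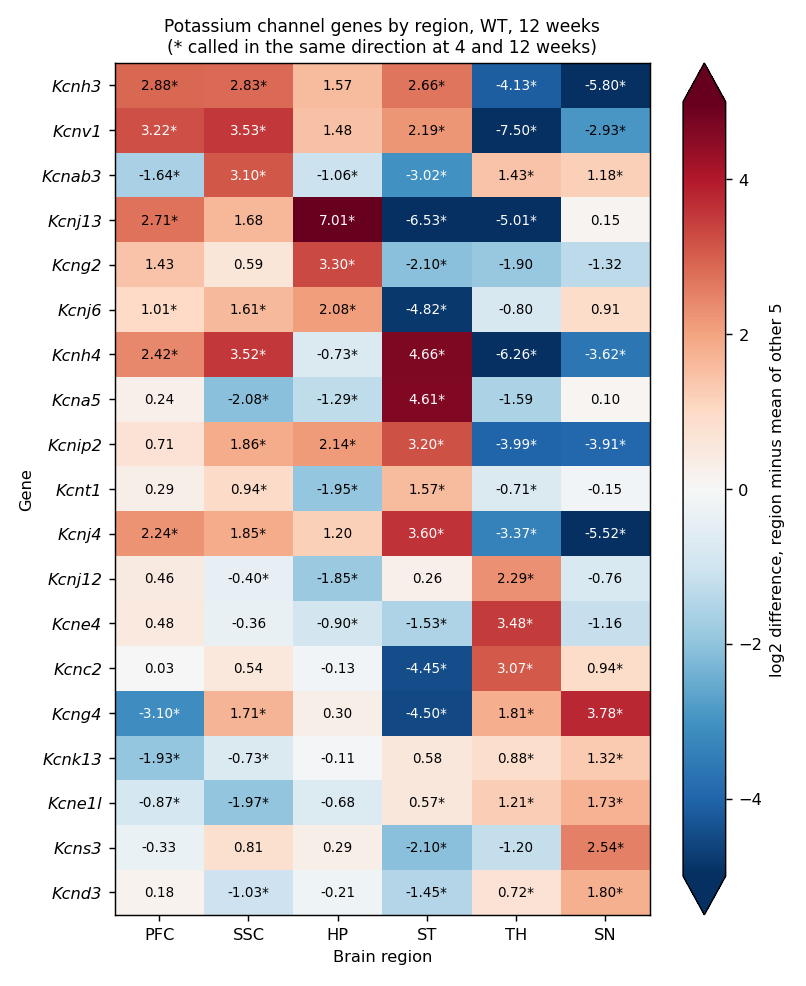
Difference of each region from the mean of the other 5 (log2, WT, 12 weeks, n = 5 libraries per region) for the 19 genes that stood highest or lowest in a region, with a star where the gene was called in the same direction at both ages. Kcnh4, Kcna5 and Kcnj4 are high in striatum, Kcnv1 and Kcnh3 in both cortical regions and Kcnc2 and Kcne4 in thalamus.

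The hippocampal level of Kcnj13, an inward rectifier of the choroid plexus epithelium, moved with that tissue's markers. Kcnj13 differed from the other regions by 5.20 ± 0.52 at 4 weeks and 7.01 ± 0.38 at 12 weeks. Across single hippocampal libraries it ran from 0.0939 CPM in the 4-week library WT 23, where 8 choroid plexus markers summed to 22.8 CPM, to 40.4 CPM in the 12-week library KO 4, the highest in that score. The share of choroid plexus in the dissections was not tested.

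Between 4 and 12 weeks, WT potassium channel genes mostly fell where they were called. Age and the batch of collection or library preparation cannot be told apart, since each age is its own set of libraries. In somatosensory cortex 5 of 80 members were higher and 16 lower at 12 weeks (22.8% of all genes called, 10.6% higher, 12.2% lower), and in prefrontal cortex 3 and 13 of 81 (13.8%, 6.01% higher, 7.79% lower). In striatum 2 were higher and 7 lower of 80 (13.6%, 6.18% higher, 7.38% lower), and in hippocampus 1 and 4 of 84 (12.9%, 5.75% higher, 7.1% lower). In thalamus 1 was higher and 2 lower of 81 (14.3%, 7.48% higher, 6.84% lower), and in substantia nigra 0 and 4 of 81 (4.24%, 1.88% higher, 2.36% lower). The median over tested members was below 0 in every region (-0.07 to -0.22), against -0.01 to 0.02 over all genes.

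Genes that fell in 3 regions included pores of several families. Kcna6, a Kv1 pore gene, went from 227 ± 35 CPM at 4 weeks to 146 ± 9.2 at 12 weeks in prefrontal cortex (log2 difference -0.63 ± 0.11, adjusted p = 0.00324), with falls in somatosensory cortex (-0.58 ± 0.08) and hippocampus (-0.55 ± 0.15). Kcnh1, the EAG gene, fell in somatosensory cortex from 268 ± 19 to 190 ± 18 CPM (-0.49 ± 0.08, adjusted p = 0.00114), in prefrontal cortex (-0.43 ± 0.10) and in striatum (-0.43 ± 0.12). The silent subunit gene Kcng1 fell in the same regions as Kcnh1 by 0.55, 0.58 and 0.38 (prefrontal, somatosensory, striatum). The astrocyte gene Kcnj10 fell in hippocampus (-0.80 ± 0.21), striatum (-0.54 ± 0.11) and somatosensory cortex (-0.52 ± 0.13). In hippocampus its 4-week WT libraries held 247, 434, 473, 230, 231 and 218 CPM and its 12-week libraries 200, 160, 149, 180 and 183 CPM, without overlap. The leak channel genes Kcnk3 and Kcnk9 fell in both cortical regions, and also in substantia nigra (Kcnk3, -0.70 ± 0.17) and thalamus (Kcnk9, -0.79 ± 0.21).

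Kcns3 stood at 6.94 to 9.12 CPM in somatosensory cortex at 4 weeks and at 10.6 to 11.4 CPM at 12 weeks, without overlap (0.41 ± 0.09, adjusted p = 0.0045), and it also rose in hippocampus (0.46 ± 0.13). The KChIP genes Kcnip1 and Kcnip4 rose in somatosensory cortex (0.37 ± 0.06 and 0.25 ± 0.08) and in striatum (0.55 ± 0.17 and 0.35 ± 0.09). Kcnip1 stood at 29.6 to 32.8 CPM in somatosensory cortex at 4 weeks and at 37.3 to 43.6 CPM at 12 weeks. Kcnj16, which pairs with Kcnj10, rose in prefrontal cortex (0.44 ± 0.12) and thalamus (0.37 ± 0.08), and Kcnj2 (0.74 ± 0.17) and Kcnd3 (0.29 ± 0.07) rose in prefrontal cortex.

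**Figure D5:**
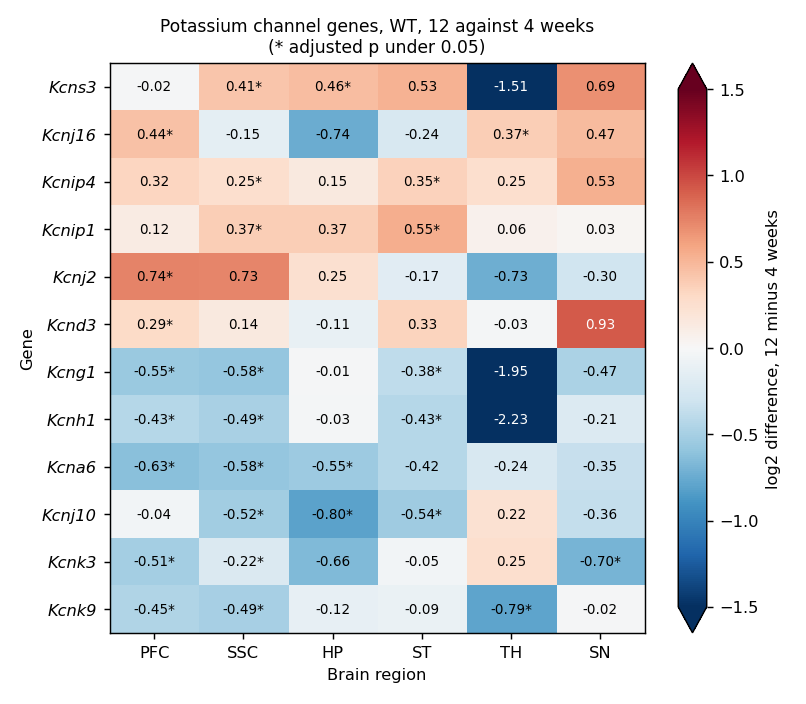
Log2 difference between 12 and 4 weeks in WT libraries of each region for 6 genes that rose and 6 that fell in the largest number of regions, with a star at an adjusted p under 0.05. Kcna6, Kcnh1, Kcng1, Kcnj10, Kcnk3 and Kcnk9 each fell in 3 regions, and the genes that rose did so in 1 or 2.

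The age counts outside cortex rested on few libraries. In striatum (among them Kcnip1 and Kcnip4 higher, Kcnk5 -0.96, Kcnj10, Kcnh1, Kcng1, Kcnma1 -0.29 and Kcnc1 -0.20) the count fell to 3 without the 12-week WT 1 or WT 5, 4 without WT 3 or the 4-week WT 142 and 5 without WT 914. In hippocampus (among them Kcns3 higher, Kcnj10, Kcna6 and Kcnn1 -0.25 lower) it was 1 without the 12-week WT 3, 2 without the 12-week WT 2, WT 4 or WT 5 or the 4-week WT 23 and 3 without the 4-week WT 142, WT 913 or WT 914. In thalamus (Kcnj16 higher, Kcnk9 and Kcng3 -2.27 lower) it was 1 without the 12-week WT 1, WT 2, WT 3 or WT 5, 6 without the 4-week WT 913 and 9 without the libraries that stood apart (2196 of 15679 genes). In substantia nigra (Kcns1 -1.24, Kcnh8 -1.05, Kcnk3 and Kcnc1 -0.53) it was 0 without any one of the 5 libraries of 12 weeks, 0 or 1 without the 4-week WT 23, WT 42, WT 142 or WT 913, 7 without WT 914, 17 without WT 92 and 21 without WT 42 and WT 92 together, a fit that called 2730 of 16269 genes. In prefrontal cortex it was 10 without the 4-week WT 23.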

How the data were processed

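The authors made the deposited values, estimated counts per gene symbol, with Salmon on mm10, per the submitters' processing notes. The sources used here do not give versions, the annotation or the use of strand. Libraries were made from 200 ng of total RNA with a stranded mRNA kit, per the labels' protocols. Totals were 20.8 M to 73.3 M counts. Counts were rounded to whole numbers and fitted in R 4.3.3 with edgeR 4.0.16 (quasi-likelihood test, TMM scaling, filterByExpr, Benjamini-Hochberg over all tested genes). The 3 genotypes of a region and age shared a fit; the contrast of striatum with the other 5 regions, the region contrasts and the age contrasts had fits of their own, in which regions with the same replicate number were treated as separate samples. Printed CPM use TMM factors over all libraries and so differ slightly from the scaling within each fit. The fits were tested on simulated data. Alternatives used DESeq2 1.42.0, limma 3.58.1 and sva 3.50.0. SE is the log2 difference divided by the square root of F.

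Named genes are those called in striatum, those whose KO effect differed between striatum and the other regions, the highest and lowest per region, and those called for age in the most regions. Any other gene was named with its values in view. The members, marker lists and partner list were chosen with earlier results of these data known. Promoters are RefSeq entries of GRCm38.p6, and gene positions are from GENCODE M21 on GRCm38. Counts cover all members, and some members are not reported here by name.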

Additional observations from a re-analysis of the deposited data

Results flagged for a closer look

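Of 113 groups of 4 to 10 libraries examined for the named genes, 10 held a library far from the others; chance alone flags about 1 in 20 groups. In striatum these were Kcnf1 in the 12-week HET 2 (129 CPM, next 101), Kcnh7 in the 4-week HET 931 (14.5 CPM, next 21.5), Kcns3 in the 4-week HET 93 (1.65 CPM, next 2.20), Kcnj6 in the 4-week WT 92 (4.82 CPM, next 0.756), and Kcnj13 in the 4-week WT 913 (0.126 CPM) and the 12-week WT 2 (0.0281 CPM, with the other WT libraries at 0). WT 92 is also high in cortical markers. In other regions they were Kcnh3 in the 4-week substantia nigra WT 23 (9.13 CPM, next 2.55), Kcnv1 in the 4-week thalamus WT 913 (12.7 CPM, next 4.27), Kcnv1 in the 4-week prefrontal cortex WT 914 (129.8 CPM, next 91.5) and Kcnk13 in the 12-week prefrontal cortex WT 2 (2.97 CPM, next 2.28).

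For 10 genes reported here the KO effect in striatum departed from the average of the other regions by edgeR's interaction contrast. At 12 weeks these were Kcns1 (-0.88) and Kcnab1 (-0.37). At 4 weeks they were Kcnj6 (2.49), Kcnc4 (1.98), Kcnc2 (1.93), Kcnj3 (1.69), Kcns3 (1.54), Kcnmb4os2 (1.41), Kcnh7 (1.38) and Kcnab3 (1.16). None of these 8 was called without the libraries that stood apart, a fit that lacked most striatal KO libraries of 4 weeks. There Kcnc4 reversed and the others kept their sign.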

How the results depend on the processing

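Leaving out 1 library at a time gave 3 to 21 called members for KO against WT in striatum at 4 weeks (6 with all) and 5 to 15 at 12 weeks (12 with all), 0 to 5 in the other regions (0), 0 to 3 for HET (0), 0 to 0 for the KO effect between ages, and 0 to 14 at 4 weeks (8) and 2 to 4 at 12 weeks (4) for striatum against the other regions. For age it gave 10 to 21 in prefrontal cortex (16), 17 to 21 in somatosensory cortex (21), 1 to 6 in hippocampus (5), 3 to 9 in striatum (9), 1 to 6 in thalamus (3) and 0 to 17 in substantia nigra (4). DESeq2 called 17 in striatum at 4 weeks, 12 in the other regions, 8 for HET, and 10, 6 and 14 for age in hippocampus, thalamus and substantia nigra; over all genes it called 965 and 1033 in striatum at 4 and 12 weeks, against 516 and 691. A fit of KO and WT alone called 2 members in striatum at 4 weeks (174 genes). No low-count filter gave 2 for age in substantia nigra. A change of at least 0.5 left 5, 7, 3 and 4 age calls in prefrontal cortex, somatosensory cortex, hippocampus and striatum. The cause of these shifts was not tested.

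Some alternatives leave out 4-week libraries and were chosen after seeing the data. Without those apart in marker levels, Kcnc4 reversed to -0.11 in the contrast of striatum with the other regions. The other 4-week genes called there with all libraries kept their sign. The counts were then 6 for the KO effect between ages and 1 for that contrast. For age the counts were 9 and 21 in thalamus and substantia nigra, where 2196 and 2730 genes of all kinds were called. Without the 16 libraries with few whole counts they were 21 in striatum (1162 of 15757 genes) and 13 for striatum against the other regions (1032 of 17545). For age they were then 4 in striatum (1411 of 15605 genes) and 29 in substantia nigra (3794 of 16285 genes). In striatum this exclusion leaves 3 of 4 KO and 0 of 3 WT libraries high in cortical markers.

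Same-numbered KO and WT libraries of 12 weeks had correlations of deviations from -0.27 to 0.58 (17 of 30 over 0.1). Between regions, same-numbered WT libraries had correlations from -0.34 to 0.50 at 4 weeks (31 of 76 over 0.1). At 12 weeks these ran from -0.17 to 0.35 (49 of 75 over 0.1). Libraries with different numbers were not compared. With the replicate block 15 members were called in striatum at 12 weeks, 0 in the other regions and 0 for HET, with 992 genes of all kinds in striatum. With genotype and number together as the block in limma-voom, 2 were called for striatum against the other regions at 4 weeks and 4 at 12 weeks. The region counts under the block were 52, 50, 34, 60, 56 and 55 (prefrontal, somatosensory, hippocampus, striatum, thalamus, substantia nigra). All region counts stayed within 1.5 times their value under each alternative run. Genes near 1 CPM, such as Kcnh8, rest on few reads.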
